A study of Mus musculus with 30 samples.

Results

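The 10 genes described here are neighbours on distal mouse chromosome 7, followed across 8 lines of neural progenitor cells (NPCs): *H19*, *Igf2*, *Ins2*, *Th*, *Ascl2*, *Cd81*, *Cdkn1c*, *Slc22a18*, *Phlda2* and *Nap1l4*. They are 10 of the 25400 genes in the count table, and all 10 were among the 16582 genes that passed the filter on low counts, *Ins2* only through the lines in which it was high. The genes were chosen because these same counts placed neighbours in different directions across the lines. Their levels and differences below are therefore a description with no test, and no threshold set them apart from other genes. Each value is given in CPM, the count scaled to a library of 1000000 counts with TMM size factors, and the 3 values of a line follow the column order of the table, so that the first value of each gene in a line comes from the same library.

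The study measured polyadenylated RNA by sequencing. NPCs were grown from HA36CB1 embryonic stem cells, which come from a cross of the strains 129 and C57BL/6. The aim was to learn which MBD2 and MBD3 isoforms and domains can stand in for MBD3 in the NuRD chromatin remodelling complex. The groups, with 3 libraries each, were wild type (WT), *Mbd3* KO, and *Mbd3* KO cells that re-express MBD3a, MBD3a without its methyl-CpG binding domain (MBD3ΔMBD), MBD2a, MBD2a without its glycine-arginine repeat (MBD2aΔGR), MBD2a with the point mutation labelled R181C (MBD2aR181C), or the isoform MBD2t. All lines but WT thus carry the disrupted endogenous *Mbd3*, and all keep endogenous *Mbd2*. The paper numbers its MBD2a point mutation differently and cites it as known to abolish the affinity of the methyl-CpG binding domain for methylated DNA. The proteins were expressed from the CAGGS promoter at a single integration site, mostly in individually derived clones, whereas the 3 MBD2t libraries came from 1 clone. *Mbd3* CPM was 149 to 157 in WT, 34.2 to 73.8 in *Mbd3* KO, 168 to 198 in MBD3a and 423 to 496 in MBD3ΔMBD. *Mbd2* CPM was 64.2 to 70.9 in *Mbd3* KO and 67.0 to 87.2 in MBD2a, 253 to 325 in MBD2aR181C, 280.3 to 700.2 in MBD2aΔGR and 335 to 356 in MBD2t. In RNA, MBD2a thus overlapped *Mbd3* KO and lay below the other MBD2 lines. These are RNA levels in NPCs and do not measure protein. By Western blot in embryonic stem cells, the paper reports equal protein levels of MBD2a and MBD2aΔGR, and it states that lower expression does not explain the MBD2a result. Libraries held 27993858 to 49392806 counts, so that 3 counts equalled 0.0607 to 0.115 CPM.

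Distal chromosome 7 holds a pair of adjoining imprinted domains, in which one parental allele is silenced. In the first, *H19* is transcribed from the maternal and *Igf2* from the paternal chromosome. Both depend on shared enhancers and on a control region that is methylated on the paternal copy and bound by CTCF on the unmethylated maternal copy. In the second, the long RNA *Kcnq1ot1* silences *Cdkn1c*, *Phlda2*, *Slc22a18* and, mainly in the placenta, more distant neighbours such as *Ascl2* and *Cd81* on the paternal chromosome. The counts do not separate the parental alleles, so imprinted expression itself was not measured, and *Kcnq1ot1* was not analysed here.

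*H19* (ENSMUSG00000000031.9, chr7:149761434-149764048, mm9, minus strand) is a spliced non-coding RNA whose exon also holds the hairpin of miR-675. The mature sequences from RefSeq (GRCm38.p6) are shown because they lie within the counted exons of *H19*, with the seed, bases 2 to 8, in capitals.
miR-675-5p: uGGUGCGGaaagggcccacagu
miR-675-3p: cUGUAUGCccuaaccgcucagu
The arms do not share a seed. The libraries hold polyadenylated RNA, so the *Mir675* row counts reads of the *H19* transcript over the 84 bases of the hairpin and not the mature miRNA.

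Promoter windows in the RefSeq table (GRCm38.p6) matched 6 of the 10 genes. *H19*, *Ins2*, *Cdkn1c* and *Nap1l4* have no entry. The windows of *Ascl2*, *Slc22a18* and *Phlda2* are shown because these genes stood high in the same lines, as given further on. *Igf2* stood high there as well, but it has several windows and they are not shown. The windows shown run from 250 bases before to 50 bases after the start, at chr7:142969215-142969514 (minus strand), chr7:143473539-143473838 (plus strand) and chr7:143502475-143502774 (minus strand). Capitals mark matches, on either strand, to the letters of the TATA box (TATAAA), of the CCAAT box (CCAAT) and of the GC box (GGGCGG).
*Ascl2*: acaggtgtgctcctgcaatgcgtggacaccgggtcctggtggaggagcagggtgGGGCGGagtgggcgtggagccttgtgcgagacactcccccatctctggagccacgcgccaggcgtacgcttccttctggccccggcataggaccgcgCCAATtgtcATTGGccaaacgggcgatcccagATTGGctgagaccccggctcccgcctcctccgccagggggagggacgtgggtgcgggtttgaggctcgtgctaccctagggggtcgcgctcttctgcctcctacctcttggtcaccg
*Slc22a18*: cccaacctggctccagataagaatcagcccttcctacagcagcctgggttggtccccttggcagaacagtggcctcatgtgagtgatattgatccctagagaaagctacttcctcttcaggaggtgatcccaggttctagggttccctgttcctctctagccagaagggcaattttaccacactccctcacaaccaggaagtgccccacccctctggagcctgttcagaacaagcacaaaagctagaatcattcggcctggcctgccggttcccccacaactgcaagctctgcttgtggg
*Phlda2*: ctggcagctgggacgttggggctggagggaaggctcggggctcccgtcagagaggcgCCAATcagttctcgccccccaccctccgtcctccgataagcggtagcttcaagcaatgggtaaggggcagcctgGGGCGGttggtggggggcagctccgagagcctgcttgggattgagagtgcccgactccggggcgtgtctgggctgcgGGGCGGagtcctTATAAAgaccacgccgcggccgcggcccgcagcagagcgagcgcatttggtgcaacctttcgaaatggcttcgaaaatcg
The *Ascl2* window held 3 CCAAT boxes and 1 GC box, the *Phlda2* window held 1 TATA box, 1 CCAAT box and 2 GC boxes, and none of these letters were in the *Slc22a18* window. Of 32851 promoter windows of the same length, 13.6% held a TATA box, 37.4% a CCAAT box and 35.7% a GC box. The windows also differed in CpG number, with 23 in *Ascl2*, 26 in *Phlda2* and 2 in *Slc22a18*, beside a median of 7 over all windows. These matches describe the letters in the windows and were not tied to any binding.

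In WT *H19* had the highest mean level of the 10 genes per kb of exon, 443 CPM per kb beside 411 for *Cdkn1c*, and it spanned 37.4-fold across the 24 libraries. Its CPM was 868, 1349 and 937 in WT and 9603, 6106 and 7458 in *Mbd3* KO, so that every *Mbd3* KO library lay above every WT library. The fitted log2 difference from WT was 2.88 (SE 0.42), a fold of 7.34. In MBD2t *H19* was at 6378, 6769 and 6139 CPM, all inside the *Mbd3* KO range. Levels were 1142, 987 and 985 CPM in MBD3a and 609, 733 and 1199 in MBD3ΔMBD, both overlapping WT. MBD2aR181C had 691, 895 and 469 CPM, also overlapping WT. MBD2aΔGR had 257, 362 and 561 CPM, all below the lowest WT library, with a log2 difference of -1.42 (SE 0.40). *H19* was lowest in this line, and all 3 of its libraries were also below those of *Mbd3* KO.

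In MBD2a a single library decided the *H19* value. CPM was 1035, 1648 and 4077, so the first library lay within the WT range and the third lay above every other library of the line and of WT. The log2 difference from WT was 1.10 (SE 0.39) with all libraries and 0.36 without the third. The same library had 2485 CPM summed over 12 trophoblast markers, against 570.2 and 581 in the first and second MBD2a libraries. Its neural progenitor marker sum was 256 CPM, against 439 and 495. The part of these markers in the *H19* value was not tested.

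*Igf2* (ENSMUSG00000048583.9, chr7:149836673-149852721, minus strand) encodes insulin-like growth factor 2, a fetal growth factor, and starts 88.7 kb from *H19*. It was high in the same lines. CPM was 509, 498 and 265 in WT and 3075, 2098 and 2819 in *Mbd3* KO, with no overlap and a log2 difference of 2.65 (SE 0.53). In MBD2t it was 1664, 1653 and 1491, above WT and below every *Mbd3* KO library. MBD2a again had 1 high library, with 535, 489.6 and 1868 CPM. MBD2aΔGR, at 103, 119 and 299.7 CPM, was lowest of the 8 lines but overlapped WT through the third library. MBD3a, MBD3ΔMBD and MBD2aR181C ranged from 170.2 to 808 CPM and overlapped WT. *Igf2* and its antisense RNA, named *Igf2os* in the table, share 98 bases of exon on opposite strands, and the strand setting of the counting is not given in the sources used here.

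*H19* and *Igf2* kept a similar proportion while both levels moved. Per kb of exon, *H19* exceeded *Igf2* 3.44- to 9.54-fold in the 24 libraries. The ratio was 3.95 to 8.20 in WT and 6.13 to 7.23 in *Mbd3* KO, so the *Mbd3* KO values lay inside the WT range. MBD2a gave 4.48 to 7.79 and MBD2aΔGR 4.33 to 7.03, also overlapping WT. MBD2t had the highest ratio of the 8 lines, 8.88 to 9.54, above every WT library. *H19* made up 0.0868 to 0.135% of the scaled library in WT and 0.611 to 0.960% in *Mbd3* KO.

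**Figure D1:**
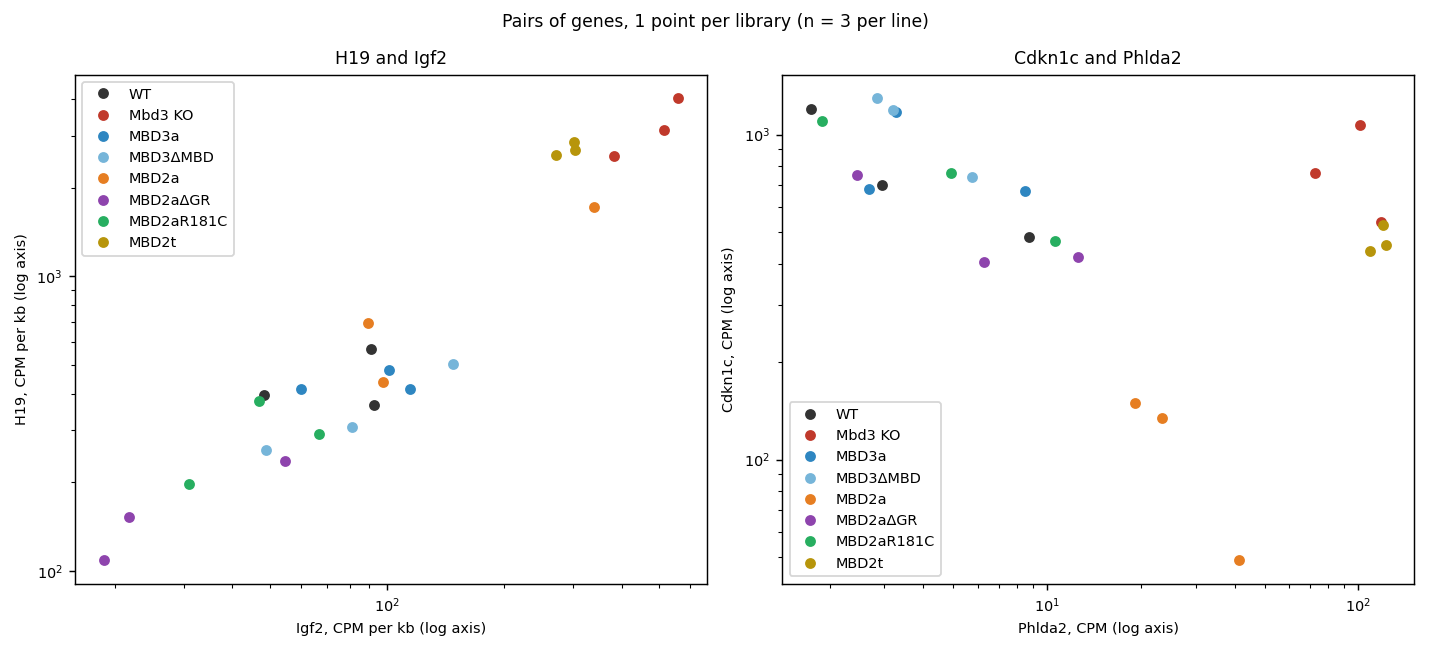
Left, *H19* against *Igf2* in CPM per kb of exon, and right, *Cdkn1c* against *Phlda2* in CPM, both on log axes with 1 point per library and 3 libraries per line. *H19* stays 3.44- to 9.54-fold above *Igf2*, whereas MBD2a libraries (*Cdkn1c* 49.0 to 149.8 CPM) separate from *Mbd3* KO (539 to 1068 CPM) on the *Cdkn1c* axis.

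*Ins2* (ENSMUSG00000000215.4, chr7:149864561-149885415, minus strand), 1 of the mouse insulin genes and the next neighbour of *Igf2*, was near the detection limit. Counts were 0, 0 and 3 in WT and 37, 40 and 21 in *Mbd3* KO. MBD2t had 71, 54 and 46 counts. In MBD2a counts were 2, 29 and 63, so 1 library was no higher than WT. In 13 of the 24 libraries there were 3 counts or fewer, and 7 of them held 0. Pooled over libraries, the ratio of *Mbd3* KO to WT was 35.1 with an exact 95% counting interval of 11.7 to 173. The interval covers counting error only, not the spread between libraries, and is no test of a gene picked on these counts. The upper bound is wide because WT held 3 counts in all.

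*Th* (ENSMUSG00000000214.4, chr7:150078657-150117033, minus strand), which encodes tyrosine hydroxylase, the rate-limiting enzyme of dopamine synthesis, stood in the opposite direction to the genes on either side. CPM was 7.6, 6.46 and 3.82 in WT and 0.143, 0.509 and 0.767 in *Mbd3* KO, a log2 difference of -3.64 (SE 0.51). It was 0.288, 0.147 and 0.153 in MBD2a and 0.354, 0.239 and 0.465 in MBD2t, both below WT and overlapping *Mbd3* KO. MBD2aΔGR was as low, at 0.553, 0.238 and 0.554 CPM, with a log2 difference from WT of -3.72 (SE 0.51). MBD3a, MBD3ΔMBD and MBD2aR181C ranged from 2.22 to 5.84 CPM, and every library of these lines lay above all libraries of the 4 low lines. MBD3ΔMBD, at 2.22, 3.77 and 3.21 CPM, was the only one of the 3 whose libraries all lay below WT.

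*Th* in MBD2aΔGR is set beside the neural progenitor markers. The summed CPM of 9 such markers was 2209 to 2821 in WT, 325 to 390.2 in *Mbd3* KO and 357 to 376 in MBD2t. In MBD2aΔGR it was 2491, 1896 and 1216, so that the second and the third library lay below WT and all lay above *Mbd3* KO. The median log2 fold change of the 9 markers in MBD2aΔGR was -0.53, and 0 were called where 4.63% of all genes were. *Th* overlapped *Mbd3* KO in this line, and the part of the markers in its level was not tested. With bulk RNA, fewer cells of a type and less RNA per cell cannot be told apart.

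**Figure D2:**
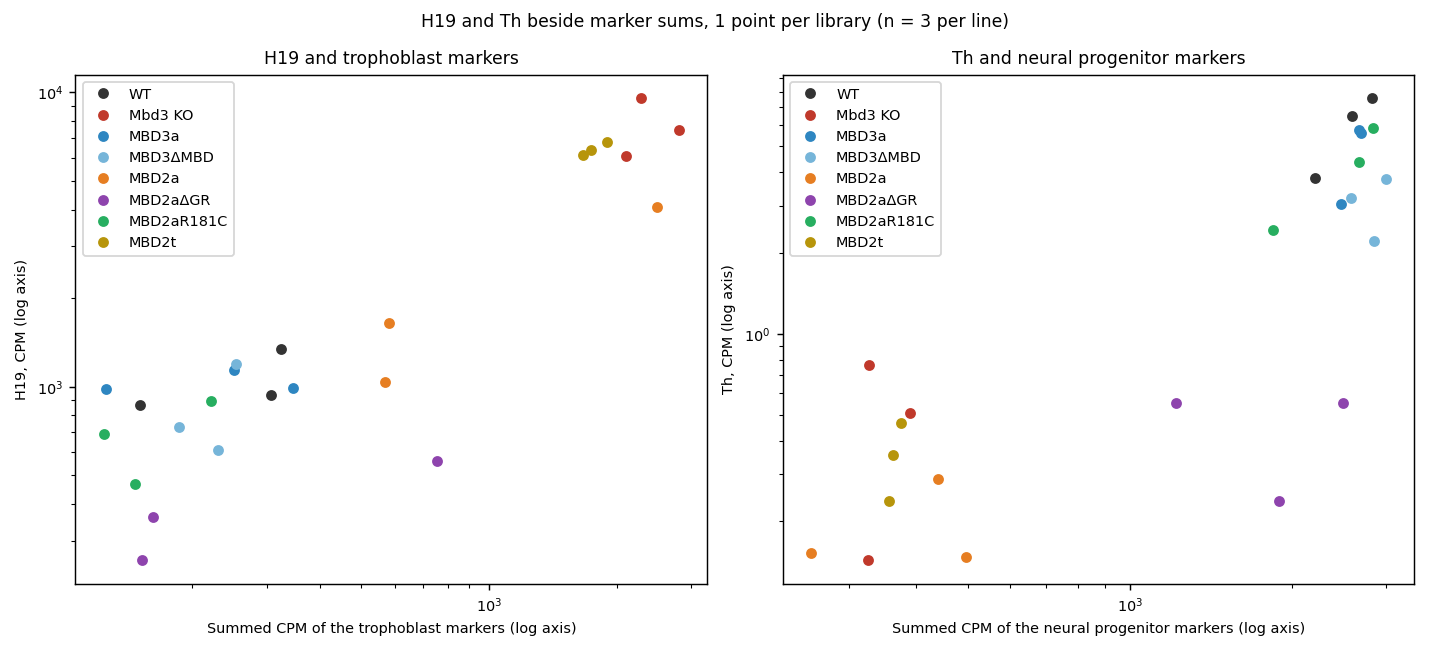
Left, *H19* CPM against the summed CPM of 12 trophoblast markers, and right, *Th* CPM against the summed CPM of 9 neural progenitor markers, on log axes with 1 point per library and 3 libraries per line. On the left, the third MBD2a library (2485 trophoblast CPM) lies within the *Mbd3* KO range of that sum. Its *H19* level, 4077 CPM, lies below every *Mbd3* KO library. On the right, the 3 MBD2aΔGR libraries have *Th* at 0.238 to 0.554 CPM with neural sums of 1216 to 2491.

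*Ascl2* (ENSMUSG00000009248.5, chr7:150152727-150155169, minus strand), a basic helix-loop-helix factor needed in trophoblast, starts 391.1 kb from *H19*. CPM was 0.564, 2.09 and 2.36 in WT and 8.75, 11.7 and 14 in *Mbd3* KO, a log2 difference of 2.77 (SE 0.70). MBD2t had 14.4, 14.2 and 13.1 CPM, and MBD2a had 4.12, 3.45 and 7.95. The MBD2a values lay above all WT and below all *Mbd3* KO libraries. MBD3a held 1 high library, at 5.09 CPM beside 0.881 and 0.59, and MBD2aR181C had 1 at 4.29.

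*Cd81* (ENSMUSG00000037706.10, chr7:150238644-150253839, plus strand) encodes a tetraspanin of the cell surface, and its level varied little, by 2.25-fold over all libraries. WT held 108, 119.7 and 123 CPM and *Mbd3* KO 132, 135 and 132. The values did not overlap, yet the log2 difference was 0.19 (SE 0.15). MBD2a was highest at 239, 198 and 164 CPM, a log2 difference from WT of 0.77 (SE 0.15). MBD2aΔGR followed at 129, 145 and 222 CPM, and MBD2t at 126, 131 and 145 overlapped *Mbd3* KO.

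*Cdkn1c* (ENSMUSG00000037664.6, chr7:150644255-150646955, minus strand) encodes the cell cycle inhibitor p57, a growth-limiting product of the maternal chromosome. Here MBD2a, and not *Mbd3* KO, stood apart. CPM was 1196, 699.6 and 486 in WT and 539, 764 and 1068 in *Mbd3* KO, with a log2 difference of -0.01 (SE 0.41). In MBD2a it was 149.8, 134 and 49.0, below every other library of the series. The log2 difference of MBD2a from WT was -2.84 (SE 0.44) and from *Mbd3* KO -2.83 (SE 0.44). MBD2aΔGR, at 749.5, 407 and 419.9 CPM, and MBD2t, at 459, 528 and 439.6, overlapped WT. The third MBD2a library, high in *H19* and in trophoblast markers, was the lowest in *Cdkn1c*, and without it the first and second still lay below all other lines.

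*Slc22a18* (ENSMUSG00000000154.8, chr7:150659626-150685239, plus strand), a membrane transporter, and *Phlda2* (ENSMUSG00000010760.4, chr7:150687450-150688446, minus strand), a pleckstrin-homology protein that restrains placental growth, lie beside *Cdkn1c* but followed *H19* and *Ascl2*. *Slc22a18* CPM was 0.295, 0.413 and 0.901 in WT and 12.7, 6.24 and 7.72 in *Mbd3* KO, a log2 difference of 4.03 (SE 0.49). *Phlda2* CPM was 1.74, 2.94 and 8.74 in WT and 119, 72.4 and 101 in *Mbd3* KO, a log2 difference of 4.44 (SE 0.71). For both genes MBD2t overlapped *Mbd3* KO, and MBD2a formed a step of its own between *Mbd3* KO and the remaining lines. In MBD2a *Slc22a18* was at 3.17, 2.56 and 3.39 CPM, all below *Mbd3* KO and above WT. *Phlda2* in MBD2a was at 19.2, 23.4 and 41.3 CPM, likewise apart from both. MBD2aΔGR reached 0.522 to 1.5 CPM for *Slc22a18* and 2.46 to 12.5 for *Phlda2*, overlapping WT in each case.

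*Nap1l4* (ENSMUSG00000059119.7, chr7:150699484-150734997, minus strand), a histone chaperone at the far edge of the domain, was lower where *Phlda2* was higher. CPM was 241, 228 and 270.1 in WT and 148, 163 and 156 in *Mbd3* KO. MBD2a had 168, 177 and 133 CPM and MBD2t 169.7, 168 and 169. These 3 lines lay below every library of the other 5. The log2 difference of *Mbd3* KO from WT was -0.66 (SE 0.10), smaller than the 1 log2 unit asked of a call.

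**Figure D3:**
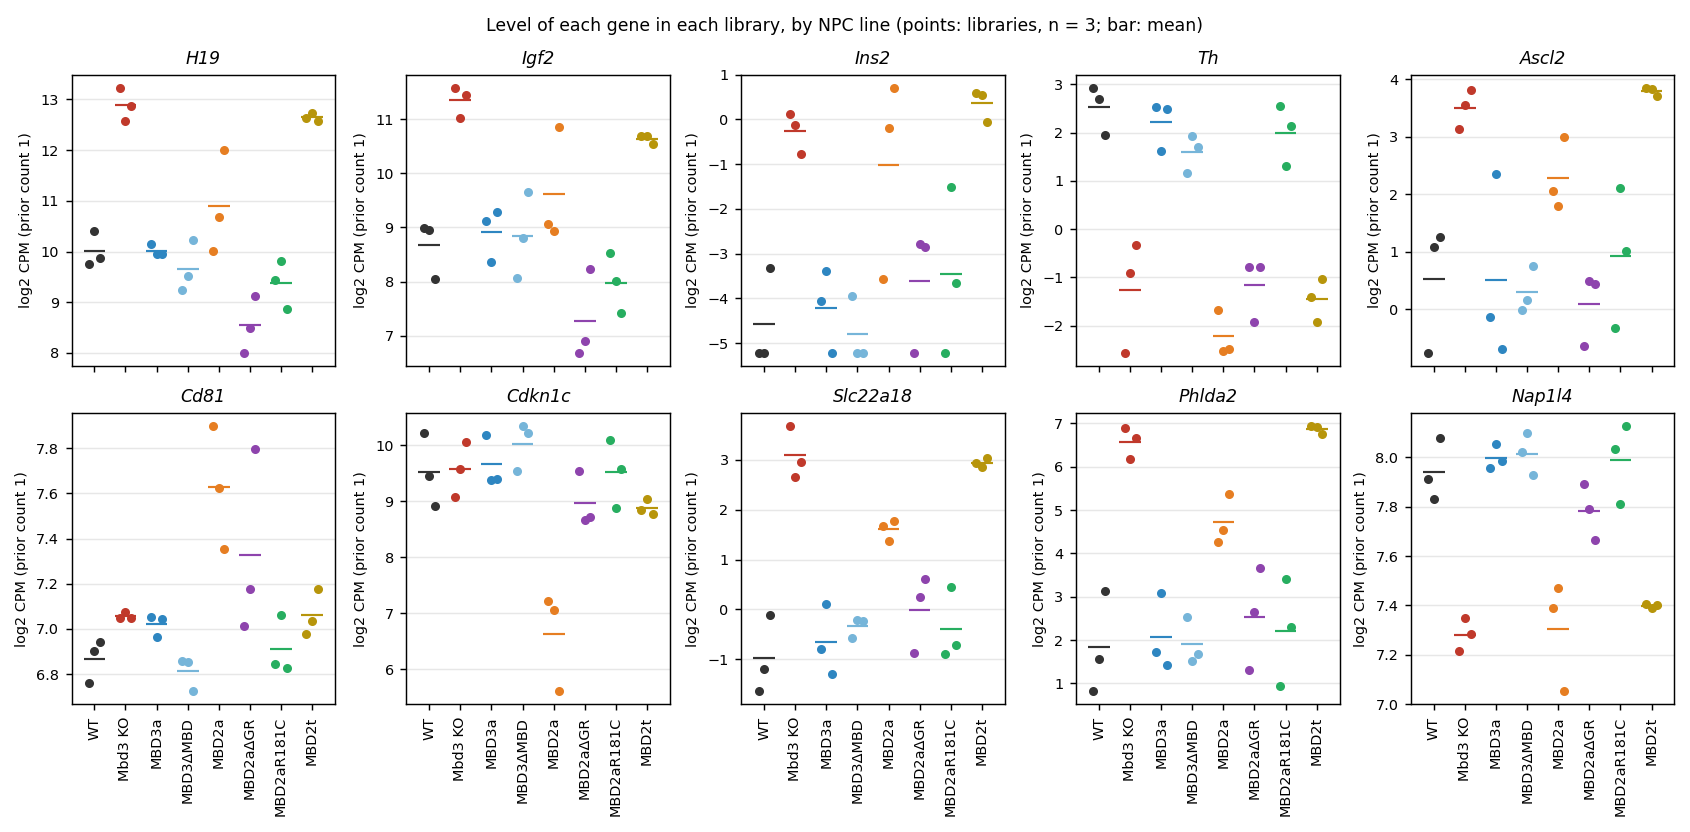
Log2 CPM (prior count 1) of each of the 10 genes in each library, by line, with the mean of 3 libraries as a bar and a separate scale for each gene. *H19*, *Igf2*, *Ascl2*, *Slc22a18* and *Phlda2* are high in *Mbd3* KO and MBD2t, *Th* is low there and in MBD2a and MBD2aΔGR, and *Cdkn1c* is low in MBD2a.

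A gene was called where the edgeR quasi-likelihood test, adjusted by Benjamini-Hochberg over all genes tested, gave a value under 0.05 with an absolute log2 fold change over 1. Because the genes were picked on these values, the counts that follow are set beside the share of all genes and nothing is read from them. In *Mbd3* KO against WT, 7 of the 10 were called (33.1% of all genes), *Th* being lower and the others higher. The median log2 difference of the 10 was 2.71 beside -0.03 over all genes. In MBD2t against WT 7 were called (32.6% of all genes), again with *Th* as the lower gene. MBD2a against WT gave 7 (30.1%), with *Th* and *Cdkn1c* lower and *Igf2* not among them, though DESeq2 called *Igf2* as well. Leaving out 1 library gave 5 to 8, and *Ascl2* was not called without the first or second WT library or without the first MBD2a or the third MBD2a library. MBD2aΔGR against WT gave 2 (4.63%), *H19* and *Th*, both lower. Libraries of the 2 lines did not overlap for 9 of the 10 genes in *Mbd3* KO (62.2% of all genes), 9 in MBD2t (69.2%), 7 in MBD2a (56.0%) and 3 in MBD2aΔGR (18.8%). These comparisons share the WT libraries.

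None of the 10 genes was called against WT in MBD3a (0.0% of all genes), MBD3ΔMBD (0.0%) or MBD2aR181C (0.00603%), by edgeR or by DESeq2. At an unadjusted p under 0.05 the numbers were 0 (1.72% of all genes), 1 (7.23%) and 0 (3.69%). Against *Mbd3* KO, 7 of the 10 were called in MBD3a (31.8%), 7 in MBD3ΔMBD (35.6%) and 7 in MBD2aR181C (29.8%), with *Th* above and the other called genes below *Mbd3* KO. In MBD2aΔGR 6 were called (24.4%), and *Th* differed by -0.08 log2 units (SE 0.51). In MBD2a 3 were called (3.9%), namely *H19*, *Slc22a18* and *Cdkn1c*, all below *Mbd3* KO. In MBD2t against *Mbd3* KO none was called by edgeR (0.00603%) or DESeq2, and 0 had an unadjusted p under 0.05 (2.45%). These comparisons share the *Mbd3* KO libraries.

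MBD2a was also set against its mutant forms. Against MBD2aΔGR, 7 of the 10 were called (17.6% of all genes), *Cdkn1c* being lower in MBD2a and the others higher. Against MBD2aR181C, 7 were called (26.0%), *Th* and *Cdkn1c* being lower in MBD2a. The numbers rested on few libraries. Without the third MBD2a library 4 were called in each of these comparisons, and without the first MBD2aΔGR library 3 were called against that line.

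Of 20 other genes of the region in the table, 18 passed the filter. In *Mbd3* KO against WT 10 rose and 1 fell (33.1% of all genes were called). The median log2 fold change of the 18 was 1.44 beside -0.03 over all genes. The rises include *Mir675* and *Igf2os*, which overlap *H19* and *Igf2*. They also include *Syt8*, *Tnni2* and *Trpm5*, which passed the filter mainly through their high lines. Nothing is read from the count or the median about the region. *Tnnt3* and *Tnni2*, subunits of fast skeletal troponin on the side of *H19* away from *Igf2*, rose by 4.68 (SE 0.75, adjusted p = 4e-05) and 4.36 (SE 0.69, adjusted p = 3.4e-05) in log2 terms in edgeR. Between them, *Lsp1*, a leukocyte actin-binding protein gene, rose by 1.76 (SE 0.43, edgeR adjusted p = 0.0018). *Syt8*, a synaptotagmin gene, was at 0 to 0.292 CPM in WT and 1.97 to 2.43 in *Mbd3* KO. *Syt8* and *Tnni2*, at 0.188 to 0.341 CPM in WT, passed the filter mainly through the lines in which they were high, so their calls are not support of their own. *Ctsd*, the gene of the lysosomal protease cathepsin D, rose by 1.56 (SE 0.26, edgeR adjusted p = 6.2e-05). *Mir675* and *Igf2os* rose by 2.95 and 2.60, and both overlap a gene described above.

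On the other side of *H19*, the decoy receptor gene *Tnfrsf23* rose by 2.25 (SE 0.27, edgeR adjusted p = 2.3e-06) and *Osbpl5*, an oxysterol-binding protein gene, by 1.32 (SE 0.20, edgeR adjusted p = 2.2e-05). *Trpm5*, a cation channel gene, was called at a mean of 0.159 CPM in WT and 0.602 in *Mbd3* KO, passed the filter in the same way as *Syt8*, and shares 220 bases of exon with *Tssc4* on the other strand. *Dhcr7*, the last enzyme of cholesterol synthesis, fell by 1.08 (SE 0.16, edgeR adjusted p = 1.8e-05). *Mrpl23*, *Tssc4*, *Kcnq1*, *Cars*, *Tnfrsf22* and *Nadsyn1* were not called in any line against WT. Genes that rose and genes that were not called lay between one another along the region.

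The other lines were read in the same way. In MBD2t against WT 9 of the 18 rose and 2 fell (32.6% of all genes), and in MBD2a 5 rose and 2 fell (30.1%), *Dhcr7* and *Tnfrsf26* being the falls in both. *Tnfrsf26* was at 0.44 CPM or less in every library, with 2, 4 and 2 counts in MBD2a and 1, 6 and 6 in MBD2t. It passed the filter through the lines in which it was higher, so its calls are not support of their own. In MBD2aΔGR 2 were called (4.63%), *Lsp1* and *Mir675*. *Lsp1* fell by 2.25 (SE 0.45, edgeR adjusted p = 0.010). *Mir675* fell by 1.30 (SE 0.38), but its row counts reads of *H19*, so its call repeats *H19* and is no separate result. In MBD3a, MBD3ΔMBD and MBD2aR181C none of the 18 was called, by edgeR or DESeq2, and 0 in each line had an unadjusted p under 0.05. Without the third MBD2a library 4 neighbours, in place of 7, were called in MBD2a, and without the first WT or the third MBD2aΔGR library none was called in MBD2aΔGR.

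**Figure D4:**
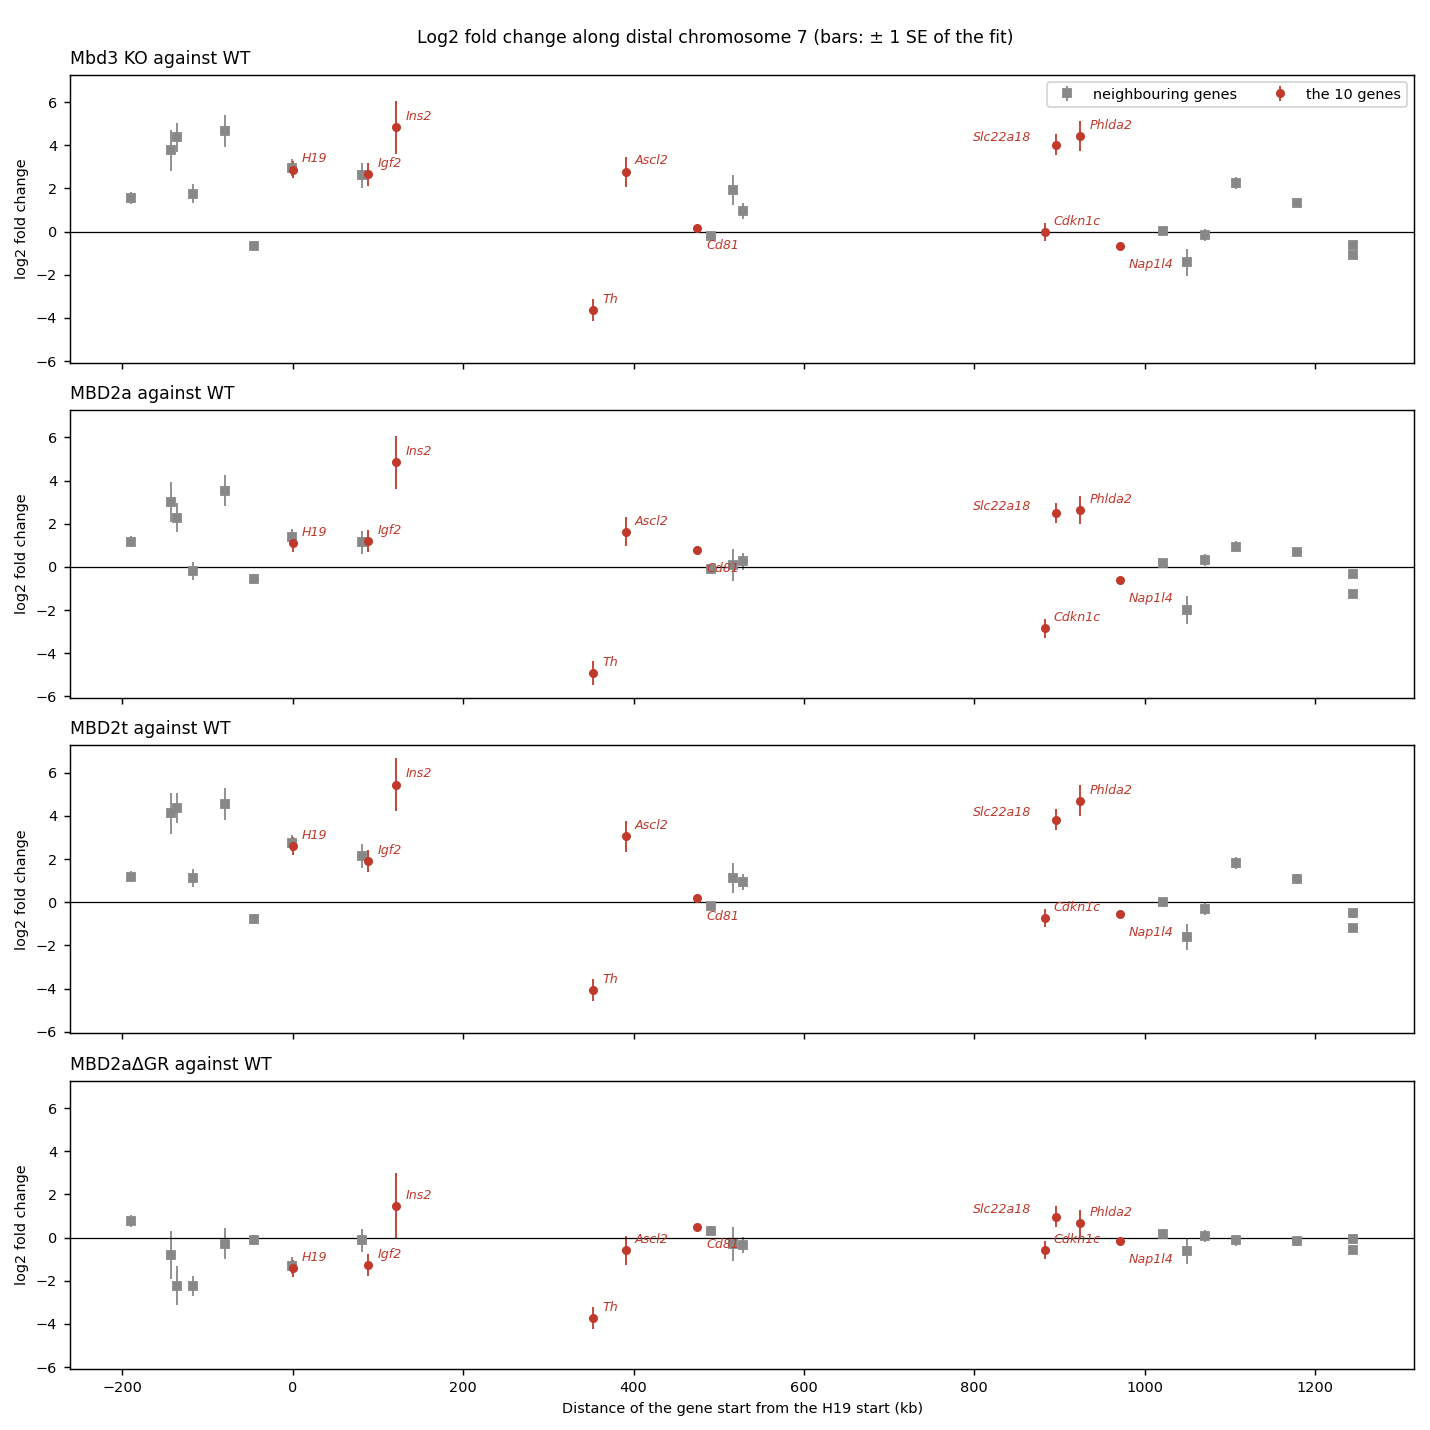
Log2 fold change against WT of the 10 genes (red circles) and of 18 neighbours (grey squares) by distance in kb of the gene start from the *H19* start, for 4 lines, with bars of 1 SE. Most called genes are higher in *Mbd3* KO, with exceptions beside them: *Th* (-3.64) lies between *Ins2* and *Ascl2* (2.77), and *Cdkn1c* (-0.01) lies next to *Slc22a18* (4.03).

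Chromosome 7 as a whole did not move by comparable amounts. The median over 970 of its genes lay -0.10 to 0.08 log2 units from WT in the 24 libraries, against -0.10 to 0.03 over all genes, and that over 107 distal genes lay -0.05 to 0.17 from WT.

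Marker lists differed between the lines as well, though not all in step with these genes. The counts of markers called stand beside the 33.1% of all genes called against WT in *Mbd3* KO, 32.6% in MBD2t, 30.1% in MBD2a and 4.63% in MBD2aΔGR. Trophoblast markers summed to 151 to 323 CPM in WT, 2111 to 2799.9 in *Mbd3* KO, 1669 to 1898 in MBD2t, 570.2 to 2485 in MBD2a and 153 to 754 in MBD2aΔGR, and 11 of 12 rose in *Mbd3* KO and in MBD2t and 8 in MBD2a. Pluripotency markers summed to 26.0 to 179.6 CPM in WT and 358 to 1083 in *Mbd3* KO, with 7 of 8 called higher there, 6 in MBD2a and 8 in MBD2t. All 9 neural progenitor markers fell in *Mbd3* KO, and 8 fell in MBD2a and in MBD2t. Of 12 endoderm markers 2 rose in *Mbd3* KO, and 2 rose and 1 fell in MBD2t. In MBD2a 7 of them rose and in MBD2aΔGR 10, where in the latter the third library summed to 4117 CPM beside 401 and 299.9. Of 8 mesenchyme markers 4 fell and 1 rose in *Mbd3* KO, 5 fell and 1 rose in MBD2a, 3 fell and 1 rose in MBD2t, and 4 fell in MBD2aΔGR. No marker was at 0 in all libraries of a line, and the part of these cell types in the values above was not tested.

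The likeness of a gene to another was measured as the root mean square difference of their log2 CPM over the 24 libraries, each centred on its own mean. *H19* was nearest to *Mir675* within its own exon (0.121), then *Afap1l2* (0.368) and *Kif26a* (0.39), and its distance from *Igf2* was 0.442. *Igf2* was nearest to *Igf2os* (0.369), *Tns2* (0.393) and *H19*. *Ascl2* was nearest to *Liph*, *Sct* and *S100a6* (0.421 to 0.465), *Slc22a18* to *Ass1*, *Gm5424* and *Capg* (0.348 to 0.399), and *Phlda2* to *Ikbke* (0.461) and *Hspb1* (0.475). *Sct* also lies on chromosome 7, as does *Tlcd3b*, named below as a nearest gene of *Th*.

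*Cdkn1c* had other nearest genes, *Gp1bb* (0.459), *Septin5* (0.466) and *Flrt1* (0.512). *Gp1bb* and *Septin5* overlap on the same strand of chromosome 16, so they may share reads and are not separate matches. *Th* was nearest to *Dusp26*, *Slc18a2*, which encodes the vesicular monoamine transporter, and *Tlcd3b* (0.642 to 0.695). *Ins2* was nearest to *Arhgap30*, *Fmr1nb* and *AA467197* (0.601 to 0.67). *Cd81* was nearest to *Hs1bp3*, *Pim3* and *Laptm4b* and *Nap1l4* to *Gabpb1*, *Cdca4* and *Zfp410*, at small distances (0.0665 to 0.15) that go with their narrow ranges.

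*Igf2* acts with receptors, binding proteins and RNA-binding proteins, of which 20 were in the table and 19 passed the filter. In *Mbd3* KO against WT 3 rose and 5 fell, 8 of 19 where 33.1% of all genes were called, and the median log2 fold change was -0.17. Nothing is read from this count about the pathway. Among binding partners in the extracellular space, *Igfbp6*, which prefers IGF2 over IGF1, rose by 4.20 (SE 0.55, edgeR adjusted p = 6.6e-06) and *Igfals*, the subunit that stabilises circulating IGF complexes, by 3.32 (SE 0.65, edgeR adjusted p = 2.9e-04). *Igfbp2* fell by 2.33 (SE 0.28, edgeR adjusted p = 2.6e-06), from a mean of 1284 to 255 CPM, and *Igfbp4* fell as well.

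Further along the pathway, the adaptor gene *Irs1* fell by 2.26 (SE 0.47, edgeR adjusted p = 4.7e-04) and the insulin receptor gene *Insr* by 1.33 (SE 0.28, edgeR adjusted p = 4.8e-04). Of the paired RNA-binding genes that block let-7 maturation, *Lin28a* rose by 1.37 (SE 0.49, edgeR adjusted p = 0.021) and *Lin28b* fell by 1.72 (SE 0.36, edgeR adjusted p = 5.8e-04). In MBD2a (30.1% of all genes called) and in MBD2t (32.6%) 3 of the 19 rose and 5 fell.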

How the data were processed

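Poly(A)-selected RNA from NPCs was made into directional libraries and sequenced by the authors, who trimmed reads with Trim Galore (0.6.6), aligned them with STAR to mm9 (NCBIM37, GENCODE vM1) and used QuasR to count over genes. The deposited values are raw counts for 24 libraries, with no other value columns. All 25400 gene IDs matched the annotation, and *Igf2as* was matched by its ID to the symbol *Igf2os*. Columns carry no replicate number, and a column named R64C was assigned to the label R181C, the only MBD2a point mutant. The labels do not say for every line that its libraries came from separate cultures, so p-values measure the spread between libraries.

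Genes were filtered with filterByExpr, scaled by TMM and fitted over all 8 lines with edgeR 4.0.16 (glmQLFit, glmQLFTest) in R 4.3.3, with Benjamini-Hochberg adjustment, 15 comparisons and a call at an adjusted p under 0.05 and a log2 fold change beyond 1. The SE is the log2 fold change over the root of the F statistic. The code was tested on simulated data. Members and lists were chosen with earlier results of these data known. The 10 genes were all named, as were neighbours called in any line, the 4 largest rises and 4 largest falls of the pathway and imprint control lists in *Mbd3* KO, and for each of the 10 the 3 most alike genes whose mean log2 CPM was 1 or more (12814 genes compared). A single one of these nearest genes is not reported here. Alternatives were fits of only the 2 lines compared, RLE scaling, library size only, no filter, DESeq2 1.42.0 and leaving out each library. ChIP-seq samples were not analysed here.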

Additional observations from a re-analysis of the deposited data

How the results depend on the processing

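No paired analysis was possible because the columns of the count table carry no replicate numbers. Of 1644 recomputed differences of the 10 genes, 22 moved by more than the spread between replicates and 0 changed direction while called. These were differences of *Ins2*, where WT without the third library is at 0, and of *Cd81* and *Nap1l4*, whose spread between replicates is small. In fits of only the 2 lines compared, with fewer samples, genes called went from 7 to 3 for MBD2a against MBD2aΔGR, from 3 to 0 for MBD2a against *Mbd3* KO, from 7 to 4 for MBD2a against WT, and from 2 to 0 for MBD2aΔGR against WT. In the fits of MBD2a with WT and with MBD2aΔGR, *Ins2* no longer passed the filter, so it was not tested and could not be called. Neighbours called went from 7 to 4 in MBD2a and from 2 to 0 in MBD2aΔGR. DESeq2 called 5 for MBD2a against *Mbd3* KO, with *Igf2* and *Phlda2* added.

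Leaving out 1 library gave 3 to 7 genes for MBD2a against MBD2aΔGR, 4 to 8 for MBD2a against MBD2aR181C, 1 to 4 for MBD2a against *Mbd3* KO and 1 to 2 for MBD2aΔGR against WT. The 1 for MBD2a against *Mbd3* KO came without its first or second library, and *H19* against WT was lost in MBD2aΔGR without any 1 of its own libraries or the first or second WT library. In MBD2a against WT, *H19* was not called without the third MBD2a (0.36) or the first WT or the third WT library, and *Igf2* became called without the first (1.49) or second (1.51) MBD2a library, by DESeq2 (1.21) and with library size only (1.34). *Ascl2* was also lost there with no filter and in the fit of 2 lines. Neighbours called ranged from 4 to 8 in MBD2a and from 0 to 1 in MBD2aΔGR. In *Mbd3* KO and MBD2t against WT 7 of the 10 were called in every leave-one-out fit. The genes were picked on these same counts, and *Ins2* passed the filter only through its high lines, so these calls are no support. The 3 MBD2t libraries came from 1 clone, so leaving out 1 of them does not show the spread between clones. Scaling by library size alone put the median of all genes at 0.11 to 0.14 log2 units against WT in *Mbd3* KO, MBD2a and MBD2t, which is of the order of the *Cd81* difference in *Mbd3* KO (0.19, or 0.33 under that scaling). *Ins2*, *Th* and *Slc22a18* in their low lines are limited by depth. The cause of the other shifts was not tested.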

Other observations

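Of 13 genes that act on imprints (readers, repressors and DNA or histone methylation enzymes), all of which passed the filter, 1 was called in *Mbd3* KO against WT by edgeR (33.1% of all genes), and 5 had an unadjusted p under 0.05, as did 10495 of the 16582 genes tested. *Ctcfl*, the germline paralogue of *Ctcf* was the gene called, at 0.0268 to 0.195 CPM in WT, near the level of 3 counts, and 0.288 to 0.486 in *Mbd3* KO. It was at 0.144 to 0.535 CPM in MBD2a, 0.384 to 0.451 in MBD2t and 0 in all MBD3ΔMBD libraries. *Ctcfl* passed the filter on low counts only through the lines in which it was high, so its call is given as a description. The median log2 fold change of the 13 genes in *Mbd3* KO was 0.06.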
